A study of Homo sapiens with 8 samples.

Results

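Ribosome biogenesis and RNA polymerase I factors are the proteins that make ribosomal RNA and build it into ribosomal subunits. RNA polymerase I transcribes a long precursor RNA in the nucleolus. Small nucleolar ribonucleoproteins (snoRNPs) then modify it, the small-subunit processome cuts and folds the part that goes into the small subunit, and further factors, many of them GTPases and helicases, shape the large subunit. Production of ribosomes is costly for a growing cell, and many of these genes are known targets of the transcription factor MYC, which is strongly expressed in acute myeloid leukaemia lines. The genes were chosen by name, with earlier results of these data known. Of 59 symbols listed, 39 had a probe set with that symbol in the platform annotation, out of 14884 named genes. Of these 39, 18 act on the small subunit (of 26 listed), 11 on the large subunit (of 15) and 5 belong to snoRNPs (of 7). A further 2 serve polymerase I (of 7), and 3 were grouped as nucleolar chaperones (of 4).

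The cells were MOLM-14, an established human acute myeloid leukaemia line, and all of them had received doxycycline for 72 h to switch on a hairpin. In the shCD39 group (4 arrays) the hairpin targeted ENTPD1, which encodes the ectonucleotidase CD39, and in the shCTRL group (4 arrays) it was scrambled. The labels describe the cells as clones and number the arrays as technical replicates. Each p-value therefore reflects the spread of arrays, which may be technical. The question posed was which genes respond to loss of CD39, and the design holds this single comparison.

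The deposited values are RMA values on the log2 scale, and all differences are shCD39 minus shCTRL. ENTPD1 read 2.42, 2.14, 2.72 and 2.95 on shCD39 arrays 1 to 4 and 3.16, 2.88, 3.21 and 4.12 on shCTRL arrays 1 to 4, which is lower on average in shCD39 but with overlapping groups (log2 difference -0.79, SE 0.25, limma adjusted p = 0.178). Of the 12 measured myeloid markers, CTSG, PRTN3 and LYZ were bright, whereas CD14 (group means of 2.47 and 2.38) lay below the median of all probe sets, which was 3.13 to 3.17 on the 8 arrays. The ENTPD1 values on all shCD39 arrays and on shCTRL array 2 also lay below that median, so its probe set was dim. The mean log2 level of the myeloid list was 7.68 to 8.04 in shCD39 and 7.45 to 7.74 in shCTRL, with 10 of 12 genes higher in shCD39. The lists for other cell types had mean levels of 4.36 to 4.73 against 4.31 to 4.60 (T and NK cells, 5 of 7 higher), 5.13 to 5.34 against 5.23 to 5.33 (B and plasma cells, 1 of 2 higher), 3.69 to 4.06 against 3.73 to 3.82 (erythroid cells and megakaryocytes, 3 of 4 higher) and 3.73 to 3.92 against 3.48 to 3.69 (fibroblasts and epithelium, 7 of 7 higher). Their part in the results was not tested. In bulk RNA, fewer cells of a type and less RNA per cell cannot be told apart.

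Most ribosome biogenesis genes read slightly lower in the shCD39 arrays, and none of the 39 passed the threshold. The mean was lower in shCD39 for 37 of 39 genes, against 48.0% of all genes tested, and NOP10 and NHP2 were the 2 exceptions. The median log2 difference was -0.18, against 0.01 over all genes. By limma, 0 of 39 had an adjusted p under 0.05, where 0.047% of all genes were lower at that threshold, and 10 of 39 had an unadjusted p under 0.05 with a lower mean, against 8.13% of all genes. The groups did not overlap in 10 of 39 genes with lower values in shCD39, against 4.23% of all genes, and in 0 of 39 with higher values, against 3.61%.

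All 39 genes lay among the 8199 genes above a log2 value of 4 on at least 4 arrays, and these brighter genes were themselves shifted a little. There the median difference was -0.03, 56.9% had a lower mean in shCD39, 12.9% had an unadjusted p under 0.05 with a lower mean and 6.72% had separate groups with lower values. Quantile normalization over the named genes brought the median of the 39 to -0.10 and cyclic loess to -0.09, with 33 of 39 lower in both (all genes, 48.7% and 49.6%). At an unadjusted p under 0.05, 6 of 39 were lower with quantile normalization, against 6.86% of all genes.

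**Figure D1:**
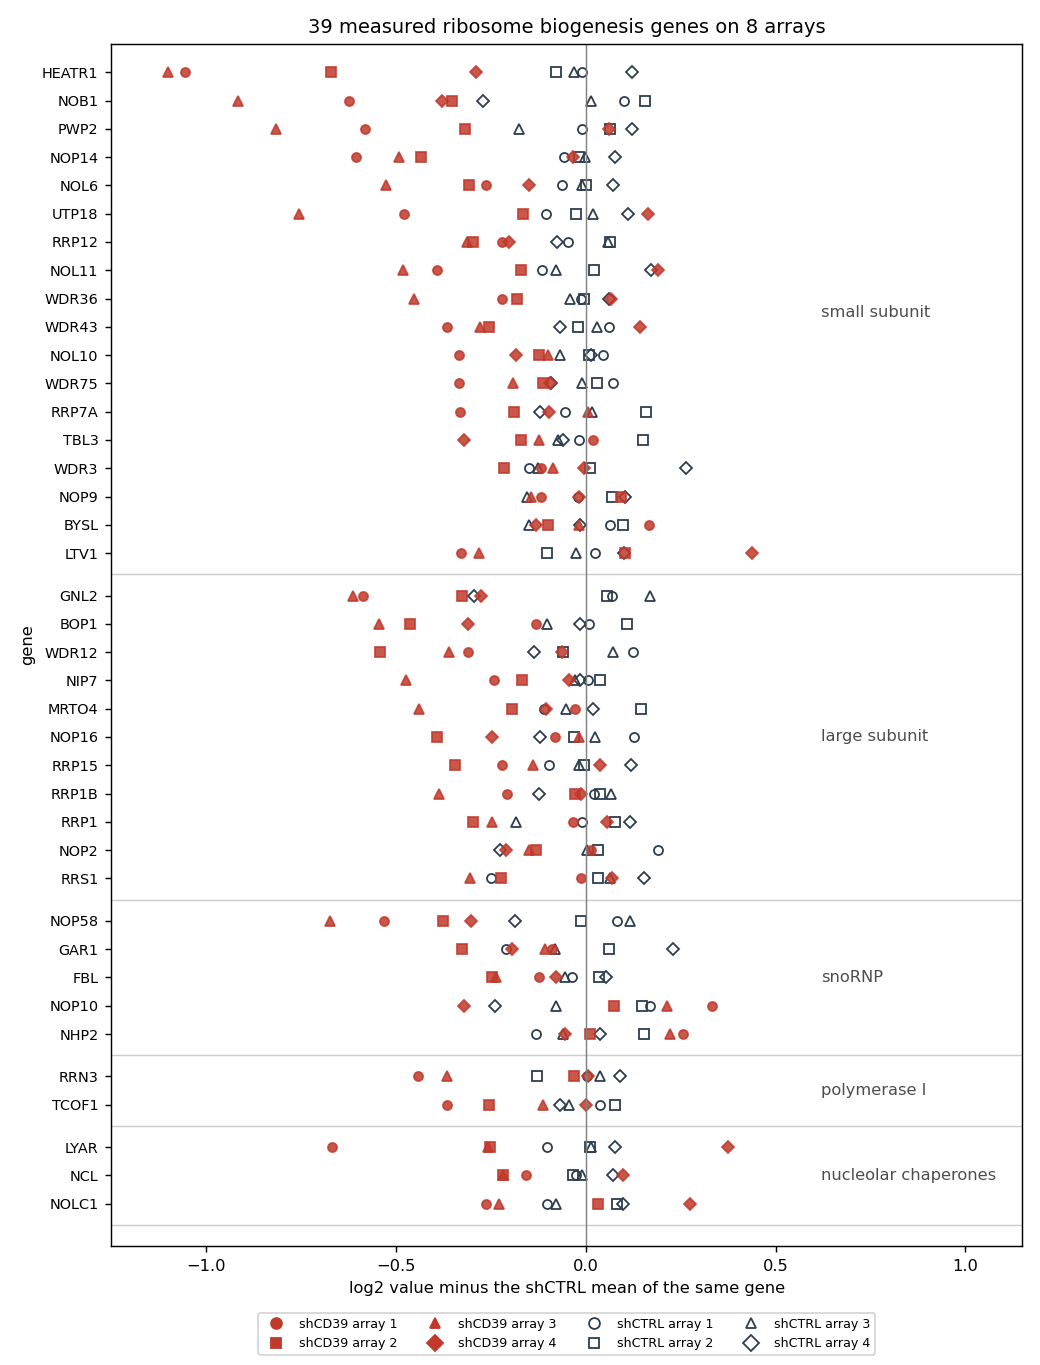
Each row is 1 of the 39 measured genes and each point 1 array, plotted as its log2 value minus the shCTRL mean of that gene (filled red, shCD39; open, shCTRL; the symbol gives the array number). Most red points lie left of 0, those of HEATR1 farthest, while the red diamonds of shCD39 array 4 often sit among the open symbols or to their right.

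The shift was carried by shCD39 arrays 1 to 3. Array 1 read below the lowest shCTRL array in 27 of the 39 genes, array 2 in 29 and array 3 in 30, but array 4 in only 13. Over all genes the corresponding shares were 26.3%, 25.5%, 28.0% and 22.8%, and over the brighter genes 33.6%, 32.6%, 37.9% and 25.7%. In 8 of the 39 genes shCD39 array 4 read above every shCTRL array. This was so in 3473 of all 14884 genes and in 1981 of the 8199 brighter genes, which is a similar share. The median deviation from the shCTRL means was -0.24, -0.22, -0.28 and -0.06 on shCD39 arrays 1 to 4, and between -0.03 and 0.04 on the shCTRL arrays. The shCD39 arrays also differed more among themselves: the SD within the group was larger in shCD39 than in shCTRL for 33 of 39 genes (84.6%, against 62.7% of all genes), with a median SD of 0.17 against 0.10.

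Without shCD39 array 4, HEATR1 and NOP14 passed the threshold as lower, 2 of 39 against 2.1% of all genes, and 16 of 39 had an unadjusted p under 0.05 with a lower mean, against 10.6%. Without both arrays numbered 4, a setting chosen after the data were seen, HEATR1, NOB1, GNL2 and NOP58 passed, 4 of 39 against 1.85% of all genes.

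**Figure D2:**
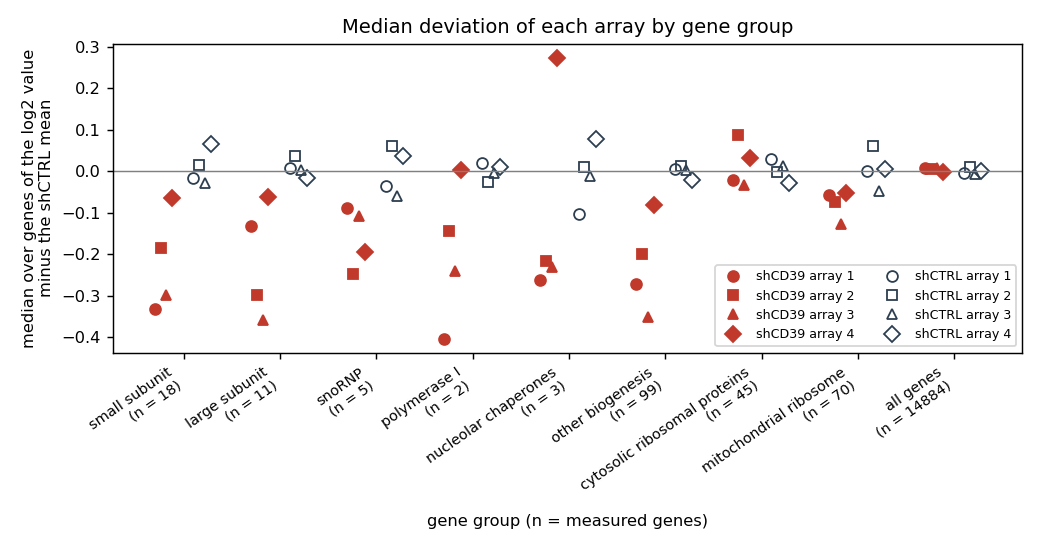
For each gene group on the horizontal axis, the points give the median over its genes of the log2 value minus the shCTRL mean, 1 point per array (filled red, shCD39; open, shCTRL). shCD39 arrays 1 to 3 lie below 0 in all 5 roles and in the other biogenesis genes, and shCD39 array 4 lies nearest to 0 or above it except in the snoRNP group.

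Ribosome biogenesis promoters are known for the E-box, the sequence bound by MYC with its partner MAX. In RefSeq windows of 300 bases (250 before to 50 after an annotated start, build GRCh38.p14), 50 of the 59 listed genes had an entry. BOP1, NOL10, NOLC1, NOP58, POLR1E, RRP12, RRP1B, RRS1 and TCOF1 had none and could not be searched. The E-box CACGTG, which reads the same on both strands, occurred in 20 of these 50 genes (40%). It occurred in 11.0% of the 10749 tested genes with a window, in 10.9% of 15842 protein-coding genes and in 12.9% of the tested genes above a log2 value of 4 on at least 4 arrays. By role, 11 of 24 small-subunit genes held it, 5 of 12 large-subunit genes and 3 of 6 snoRNP genes. It was present in 1 of 3 genes grouped as nucleolar chaperones and in 0 of 5 polymerase I genes. Among other ribosome biogenesis genes the share was 26.3%, among cytosolic ribosomal protein genes 6.56% and among genes of the mitochondrial ribosome 12.3%.

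The E-boxes of these genes lay close to the start. Occurrences were counted per window, so an E-box held by several windows of a gene counted each time. The listed genes gave 22 occurrences in 20 genes, and the other tested genes 1406 in 1173. Of 22 occurrences, 14 (63.6%) began after the annotated start, against 8.89% of 1406 occurrences in the other tested genes, and 18 (81.8%) began between 20 bases before and 40 after it, against 17.0%; this last range was chosen after the positions were seen. Other motifs were less common: the palindromic core motif of NRF1 occurred in 3 of 50 genes (6%, against 2.20% of the tested genes), and either of the E2F motifs TTTCGCGC and TTTGGCGC, also on both strands, in 1 of 50 (2%, against 1.83%). Measured genes with and without an E-box had like differences between the groups, with a median of -0.19 over 14 genes and -0.18 over 17.

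The stretches below run from 120 bases before to 30 after the start, with the E-box in capitals. Among measured genes with a window, the 3 with an E-box that differed most were GNL2 (minus strand, chr1:37595908-37596057), PWP2 (plus strand, chr21:44107279-44107428) and NOP14 (minus strand, chr4:2963377-2963526). NOP58, which differed more than GNL2, had no window. HEATR1 (minus strand, chr1:236604487-236604636), the gene that differed most of all, had no E-box in its window and is shown for contrast.
GNL2: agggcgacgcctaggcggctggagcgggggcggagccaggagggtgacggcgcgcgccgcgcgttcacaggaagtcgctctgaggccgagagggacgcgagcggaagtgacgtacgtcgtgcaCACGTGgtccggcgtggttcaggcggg
PWP2: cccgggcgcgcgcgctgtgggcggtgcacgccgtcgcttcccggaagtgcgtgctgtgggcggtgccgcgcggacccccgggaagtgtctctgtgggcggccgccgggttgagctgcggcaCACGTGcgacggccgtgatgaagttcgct
NOP14: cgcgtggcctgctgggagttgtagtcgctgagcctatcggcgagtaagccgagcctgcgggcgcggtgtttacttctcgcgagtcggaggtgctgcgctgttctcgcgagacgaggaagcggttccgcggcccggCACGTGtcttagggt
HEATR1: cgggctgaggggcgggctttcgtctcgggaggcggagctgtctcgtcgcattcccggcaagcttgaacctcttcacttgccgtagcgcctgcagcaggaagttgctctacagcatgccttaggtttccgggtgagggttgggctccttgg
In GNL2 and PWP2 the capitals begin 4 and 2 bases into the transcript, and in NOP14 16 bases.

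**Figure D3:**
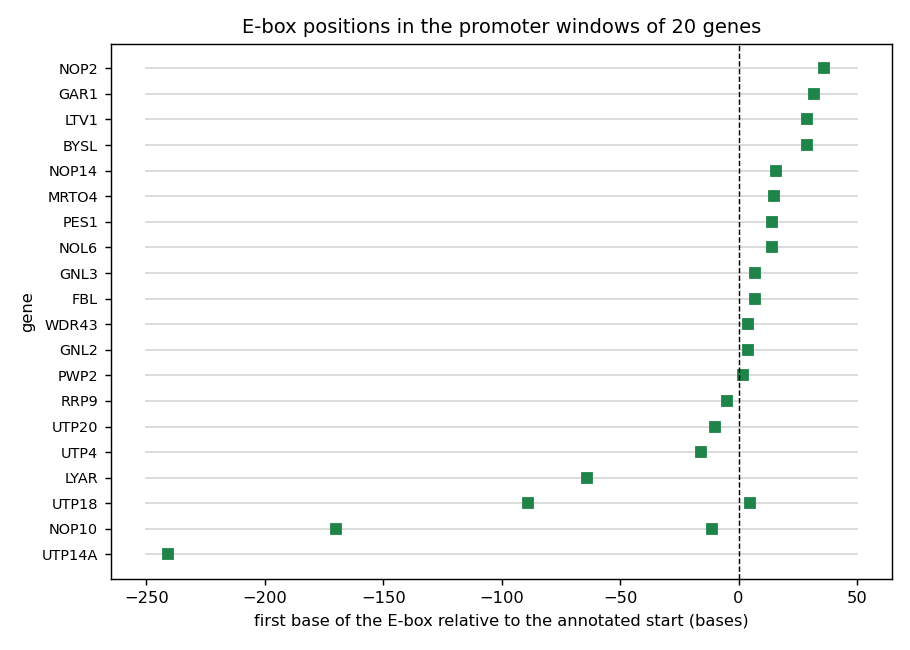
Each square marks the first base of an E-box in the promoter window of 1 of the 20 genes that hold it, as the distance in bases from the annotated start (dashed line); the grey lines show the windows. Most squares stand at or just right of the start, and the outermost is that of UTP14A at -241.

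Small-subunit factors were lower in all 18 measured genes, with a median of -0.19 (range -0.78 to -0.02). The groups did not overlap in 6 of them, HEATR1, NOB1, NOL6, RRP12, NOL10 and WDR75, where 4.23% of all genes and 6.72% of the brighter genes had such separate, lower groups. HEATR1, a large scaffold of the complex that binds the nascent precursor RNA and supports polymerase I transcription, showed the largest difference of the 39 genes. It read 8.37, 8.76, 8.33 and 9.14 on shCD39 arrays 1 to 4 and 9.42, 9.35, 9.40 and 9.55 on shCTRL arrays 1 to 4. All shCD39 arrays were below all shCTRL arrays, 1.72-fold on average (log2 -0.78, SE 0.17, adjusted p = 0.0873; exact permutation p = 0.0286, the smallest that 4 against 4 arrays allow). The call depended on the setting, with adjusted p = 0.00774 without shCD39 array 4 and 0.0388 with array weights (1 of 39 genes past the threshold, against 0.585% of all genes), in a range of 0.00774 to 0.275 over the alternatives tried.

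NOB1 is the endonuclease that makes the final cut of the small subunit's RNA. It read 8.85, 9.12, 8.56 and 9.10 in shCD39 and 9.57, 9.63, 9.49 and 9.20 in shCTRL, so that the groups were separate, with shCTRL array 4 nearest to the shCD39 values (log2 -0.57, SE 0.15, adjusted p = 0.122). NOP14, which acts with the methyltransferase EMG1 in the processome, read 8.07, 8.24, 8.18 and 8.64 against 8.62, 8.65, 8.67 and 8.75. Here only shCD39 array 4 lay within the shCTRL range (log2 -0.39, SE 0.13, adjusted p = 0.196), and without it the adjusted p was 0.0316. NOL6, of the complex that also holds RRP7A, read 7.54, 7.49, 7.27 and 7.65 against 7.74, 7.80, 7.79 and 7.87, with no overlap (log2 -0.31, SE 0.11, adjusted p = 0.217).

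PWP2 and UTP18 are WD-repeat proteins of the complex that binds around the U3 snoRNP. PWP2 read 6.02, 6.29, 5.79 and 6.66 in shCD39 and 6.59, 6.67, 6.43 and 6.72 in shCTRL. UTP18 read 6.47, 6.78, 6.19 and 7.11 against 6.84, 6.92, 6.97 and 7.06. Both were low on shCD39 arrays 1 to 3, while array 4 lay inside the shCTRL range for PWP2 and above it for UTP18 (log2 -0.41, SE 0.17 and -0.31, SE 0.17). The other WD-repeat genes measured from that complex had smaller differences, WDR36 with -0.20, TBL3 with -0.15 and WDR3 with -0.11.

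The partners of HEATR1 in its complex were less shifted, NOL11 by -0.21, WDR43 by -0.19 and WDR75 by -0.18. RRP12, an export factor of the small subunit, stood at -0.26 with an SD of only 0.05 in shCD39, NOL10 at -0.18 and RRP7A at -0.15. RRP7A has a near-identical pseudogene, so its value may include signal from that copy. The 2 smallest differences were those of BYSL and LTV1, which stay with the late small-subunit precursor. BYSL read 6.64, 6.38, 6.46 and 6.34 in shCD39 and 6.54, 6.57, 6.33 and 6.46 in shCTRL. LTV1 read 8.42, 8.85, 8.46 and 9.18 against 8.77, 8.64, 8.72 and 8.85, low on arrays 1 and 3 and highest of all on array 4. Both had a log2 difference of -0.02 (SE 0.11 and 0.16), and their sign turned under quantile and cyclic loess normalization. NOP9, an RNA-binding protein of early processing, stood at -0.05.

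**Figure D4:**
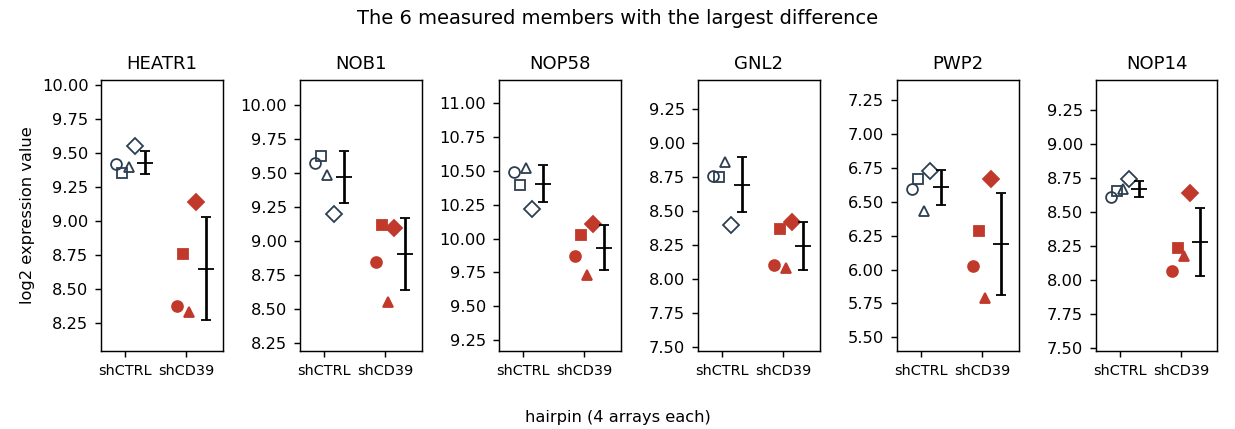
The log2 values of the 6 measured genes with the largest differences are shown per array (open, shCTRL; filled red, shCD39; circles, squares, triangles and diamonds for arrays 1 to 4), with the mean and SD of each group in black; every panel spans 2 log2 units. The groups are separate in HEATR1, NOB1 and NOP58, and overlap in GNL2, PWP2 and NOP14.

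Large-subunit factors were also lower in all 11 measured genes, with a median of -0.18 (range -0.45 to -0.12) and separate groups in 2 of 11, BOP1 and NIP7 (4.23% of all genes, 6.72% of the brighter genes). GNL2, a nucleolar GTPase that matures the large subunit before export, differed most. It read 8.11, 8.37, 8.08 and 8.42 in shCD39 and 8.76, 8.75, 8.86 and 8.40 in shCTRL. The overlap came from shCTRL array 4, which read just below shCD39 array 4 (log2 -0.45, SE 0.13, adjusted p = 0.157). BOP1 and WDR12 form, with PES1, the complex needed to process the large subunit's RNA. BOP1 read 7.58, 7.25, 7.17 and 7.40 against 7.72, 7.82, 7.61 and 7.69, and its other, dimmer probe set gave -0.35 where the brighter gave -0.36 (SE 0.12, adjusted p = 0.186). WDR12 read 7.88, 7.65, 7.83 and 8.13 against 8.32, 8.13, 8.26 and 8.06, with shCD39 array 4 inside the shCTRL range (log2 -0.32, SE 0.12). Both genes of the complex were thus lower on shCD39 arrays 1 to 3 than on any shCTRL array.

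NIP7, which binds the large-subunit precursor, read 8.37, 8.44, 8.14 and 8.57 in shCD39 and 8.62, 8.65, 8.58 and 8.60 in shCTRL. The shCTRL arrays of NIP7 were tightly grouped (SD 0.03) and all above shCD39, by a log2 difference of -0.23 (SE 0.11). MRTO4, a relative of the stalk protein that holds its place on the precursor, read 7.33, 7.16, 6.92 and 7.25 against 7.25, 7.50, 7.30 and 7.37. NOP16 read 7.07, 6.75, 7.13 and 6.90 against 7.27, 7.11, 7.17 and 7.03. In these 2 genes the arrays of both groups were interleaved (log2 -0.19 and -0.18, SE 0.12 each).

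RRP15, RRP1B and RRP1 had log2 differences of -0.17, -0.16 and -0.13. The 2 smallest differences of this role were those of NOP2, a methyltransferase of the large subunit's RNA, and RRS1, which helps to bring in the smallest ribosomal RNA. NOP2 read 8.07, 7.92, 7.90 and 7.84 in shCD39 and 8.24, 8.09, 8.06 and 7.83 in shCTRL. RRS1 read 7.58, 7.37, 7.29 and 7.67 against 7.35, 7.63, 7.66 and 7.75. The groups overlapped widely in both (log2 -0.12 each, SE 0.12 and 0.13).

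Of the 5 snoRNP genes, 3 had a lower mean in shCD39 (NOP58, FBL and GAR1) and 2 a higher one (NOP10 and NHP2). NOP58 and FBL belong to the box C/D class, which guides methylation of ribosomal RNA, and the others to the box H/ACA class, which guides pseudouridylation; the classes were not tested against each other. NOP58, a C/D core protein, read 9.87, 10.03, 9.73 and 10.10 in shCD39 and 10.49, 10.39, 10.52 and 10.22 in shCTRL. FBL, the methyltransferase of the same particle, read 10.18, 10.06, 10.07 and 10.23 against 10.27, 10.34, 10.25 and 10.36. Neither gene had overlapping groups, where 4.23% of all genes and 6.72% of the brighter genes had such separate, lower groups. The difference was larger for NOP58 (log2 -0.47, SE 0.12, adjusted p = 0.117) than for FBL (-0.17, SE 0.10, adjusted p = 0.461), though the 2 differences were not tested against each other.

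Of the H/ACA proteins, GAR1 read 5.54, 5.30, 5.52 and 5.43 in shCD39 and 5.42, 5.69, 5.55 and 5.86 in shCTRL (log2 -0.18, SE 0.12). NOP10 read 8.80, 8.54, 8.68 and 8.14 against 8.63, 8.61, 8.39 and 8.23. NHP2 read 7.01, 6.76, 6.97 and 6.69 against 6.62, 6.90, 6.69 and 6.79. Both NOP10 and NHP2 were highest on shCD39 arrays 1 and 3 and low on array 4, and their means were higher in shCD39 by 0.07 (SE 0.15) and 0.11 (SE 0.12), with adjusted p = 0.874 and 0.727. The median over the 5 snoRNP genes was -0.17, or -0.10 without shCTRL array 4. It was -0.08 with quantile and -0.07 with cyclic loess normalization.

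Only 2 genes represented polymerase I. RRN3, the factor that brings the polymerase to its promoter, read 6.96, 7.37, 7.03 and 7.41 in shCD39 and 7.40, 7.27, 7.44 and 7.49 in shCTRL. TCOF1, the nucleolar protein treacle, which supports transcription of the ribosomal RNA genes, read 5.87, 5.98, 6.12 and 6.23 against 6.27, 6.31, 6.19 and 6.16. In RRN3 shCD39 arrays 1 and 3 were low and arrays 2 and 4 lay inside the shCTRL range, and in TCOF1 array 4 did (log2 -0.21, SE 0.13 and -0.18, SE 0.11). RRN3 has near-identical pseudogene copies, which may add to its signal. The median of the role, -0.20, rests on these 2 genes, and the polymerase subunits POLR1A, POLR1B, POLR1C and POLR1E and the factor UBTF were not analysed here.

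The 3 genes grouped as nucleolar chaperones had the smallest median, -0.12. LYAR, a nucleolar zinc finger protein counted in this group, read 5.71, 6.13, 6.12 and 6.75 in shCD39 and 6.28, 6.39, 6.39 and 6.46 in shCTRL. NCL (nucleolin), which binds the nascent precursor, read 7.94, 7.88, 7.88 and 8.20 against 8.07, 8.06, 8.09 and 8.17. NOLC1, a chaperone of snoRNPs, read 9.09, 9.38, 9.12 and 9.62 against 9.25, 9.43, 9.27 and 9.45. In each of them shCD39 array 4 was above every shCTRL array, while arrays 1 and 3 were below every one (log2 -0.20, SE 0.18; -0.12, SE 0.11; -0.05, SE 0.13). The median of the role was -0.20 without shCD39 array 4 and -0.05 without shCD39 array 1.

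The medians of the 5 roles, between -0.20 and -0.12, differed by less than the range of the shCD39 arrays within any role, and were not tested against each other. The remaining listed genes without a named probe set were RRP9, UTP3, UTP4, UTP6, UTP11, UTP14A, UTP15 and UTP20 (small subunit), GNL3, PES1, RRP8 and PPAN (large subunit), NOP56 and DKC1 (snoRNP) and NPM1 (nucleolar chaperone), and they were not analysed here. A further list of 20 snoRNAs that lie in introns of NCL, NOP56, NOP58, GNL3, DKC1, WDR43 and PPAN had 0 named probe sets.

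A separate list of 136 other ribosome biogenesis genes was likewise chosen with earlier results of these data known. The 99 of them that were measured showed the same direction. Of these, 88 were lower in shCD39, with a median of -0.22. By limma 0 of 99 passed, against 0.047% of all genes lower, and 35 had an unadjusted p under 0.05 with a lower mean, against 8.13% of all genes. The groups did not overlap in 22 with lower values, against 4.23% of all genes. Without shCD39 array 4, 10 of the 99 passed as lower, against 2.1% of all genes. The nuclear exosome trims precursor RNA. Its group, in which C1D, MTREX and XRN2 were also counted, had the largest median of the roles in this list, -0.29 over 14 genes with 12 lower. The largest differences in the group were those of EXOSC8 (-0.82, SE 0.19), EXOSC9 (-0.54), EXOSC5 (-0.48) and EXOSC2 (-0.46).

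Other large-subunit factors were lower in 40 of 42 genes (median -0.21), with the polynucleotide kinase NOL9 at -0.74 (SE 0.14, adjusted p = 0.0783), PUM3 at -0.54, RSL24D1 at -0.52 and RPF2 at -0.51. NOL9 read 6.39, 6.74, 6.27 and 6.83 in shCD39 and 7.33, 7.40, 7.30 and 7.15 in shCTRL, with no overlap. Other small-subunit factors were lower in 22 of 27 (median -0.22), with NOC4L, the partner of NOP14, at -0.67 (SE 0.13, adjusted p = 0.0783), RCL1 at -0.51, DCAF13 at -0.40 and UTP25 at -0.38. NOC4L read 6.99, 6.45, 6.87 and 6.85 against 7.49, 7.49, 7.54 and 7.30, and here shCD39 array 4 was as low as the other shCD39 arrays. Other genes listed under snoRNPs, which were SNU13 and assembly factors, were lower in 8 of 9 (median -0.20, with NUFIP1 and NOPCHAP1 at -0.35 each, NAF1 at -0.30 and RUVBL2 at -0.25). Genes listed under polymerase I were lower in 6 of 7 (median -0.20; POLR1H -0.42, TBP -0.24, MYBBP1A -0.21 and POLR1F -0.20). Among them POLR2F, POLR2H, TBP and TOP1 are not specific to polymerase I.

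**Figure D5:**
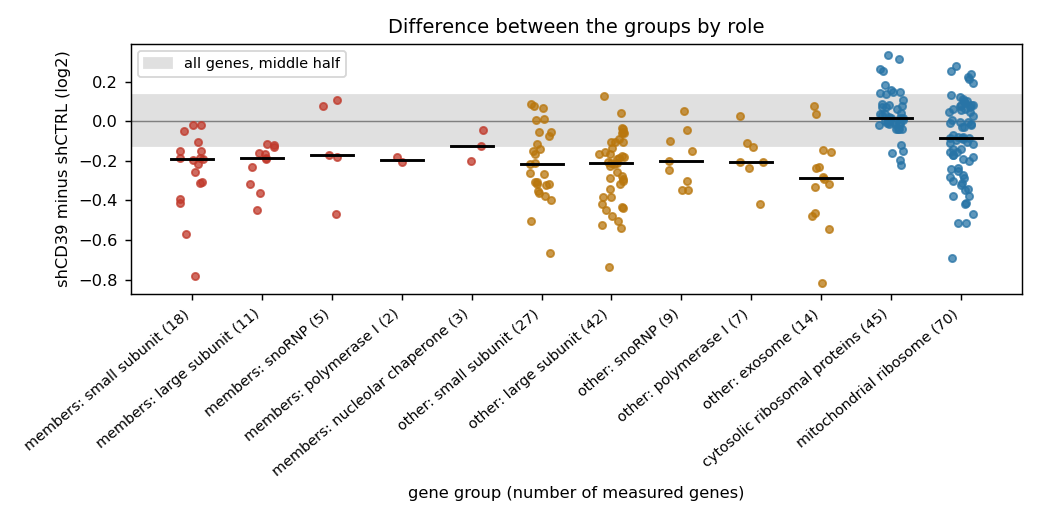
Each point is the log2 difference (shCD39 minus shCTRL) of 1 measured gene, by gene group; black bars are medians and the grey band holds the middle 50% of all genes. The biogenesis roles have medians from -0.29 to -0.12, whereas the cytosolic ribosomal proteins centre on 0.02.

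The genes of the ribosomal proteins themselves had smaller median differences. Of 45 measured cytosolic ribosomal protein genes, 17 were lower, with a median of 0.02. By limma 0 had an unadjusted p under 0.05 with a lower mean and 2 with a higher mean, against 8.13% and 6.54% of all genes. The groups did not overlap in 4 genes with higher values, against 3.61% of all genes. The mitochondrial ribosome had 46 of 70 measured genes below shCTRL (median -0.08), 14 of them with an unadjusted p under 0.05. Over all genes the shares were 48.0% and 8.13%. These lists were set beside the biogenesis genes as counts and medians, and the difference between lists was not tested.

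MYC read 9.40, 9.17, 9.12 and 9.37 in shCD39 and 10.12, 10.06, 9.98 and 9.35 in shCTRL. The shCTRL array 4 was as low as the shCD39 arrays (log2 -0.61, SE 0.16, adjusted p = 0.131), and without both arrays numbered 4 the adjusted p was 0.0175. Proliferation genes also read lower in shCD39. All 24 measured genes of DNA replication were lower (median -0.57), with mean log2 levels of 6.81 to 7.42 in shCD39 and 7.41 to 7.78 in shCTRL. All 19 of G2 and mitosis were lower too (median -0.43), with 7.12 to 7.96 and 7.77 to 8.17. On shCTRL array 4, the lowest of its group for MYC, both lists had their highest shCTRL levels, 7.78 and 8.17. On both lists shCD39 array 4 was the highest of its group and lay within the shCTRL range. The part of these lists and of MYC in the biogenesis results was not tested.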

How the data were processed

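The authors deposited log2 expression values per probe set, made with RMA in the oligo package per the submitters' processing notes; software versions were not given in the sources used. RMA sets the arrays to a shared distribution, so a difference is relative to the bulk of probe sets. Labelling used the GeneChip WT PLUS kit, per the labels' protocols. Of 53617 probe sets, 16098 had a symbol (all exactly 1; 37519 had none), updated through Entrez IDs against RefSeq GRCh38.p14; each of 14884 genes was read from its brightest probe set by the mean of the 8 arrays. Correlations between arrays were 0.974 to 0.987, and 0 pairs were identical. Precision is limited by the number of arrays. Groups were compared with limma 3.58.1 (lmFit, eBayes; 2-sided, Benjamini-Hochberg over all genes, threshold 0.05) in R 4.3.3, which was tested on simulated data, and single values with a 2-sided exact permutation test.

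Members and lists were chosen with earlier results of these data known. Values on every array are given for up to 6 genes per role with the largest difference and up to 2 with the smallest; of the other biogenesis genes, up to 4 per role are named. Alternatives were quantile, median and cyclic loess normalization of the named genes, dropping dim genes, averaging probe sets, array weights, limma's intensity trend (robust), blocking on replicate number, and leaving out each array; the setting without both arrays numbered 4 was chosen with the data in view. Promoter windows are RefSeq's, build GRCh38.p14. No proteins were used.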

Additional observations from a re-analysis of the deposited data

Results flagged for a closer look

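The median deviation of the 3 genes grouped as nucleolar chaperones (LYAR, NCL and NOLC1) from their shCTRL means was 0.27 on shCD39 array 4. This was far from the other shCD39 arrays, the nearest of which stood at -0.22. This was the only such gap among 94 groups of 4 values checked (each measured gene, ENTPD1 and the list medians, in both groups); chance flags about 1 in 20 groups.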

How the results depend on the processing

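Under the 16 alternatives planned, the count of measured genes with a lower mean in shCD39 stayed between 33 and 37 of 39, and 22 of the 26 genes given with all their values kept their sign. The number of all genes past the threshold, 14 as deposited, was 124 with array weights, 45 with the filter on dim genes, 22 with an intensity trend, 6 with quantile normalization, 368 without both arrays numbered 4 and 0 to 423 when single arrays were left out (0 by limma without shCTRL array 1, with 1574 at an unadjusted p under 0.05; 423 without shCD39 array 4, 48 without shCTRL array 4, 3 to 6 without any other array). Ribosome biogenesis genes past the threshold numbered 1 with array weights, 4 without both arrays numbered 4 and 0 to 2 without single arrays. The median of the 39 was -0.094 with cyclic loess and -0.10 with quantile normalization, and -0.22 to -0.16 without single arrays. The small-subunit median was -0.092 with cyclic loess; the snoRNP median was -0.068 with cyclic loess, -0.077 with quantile normalization, -0.10 without both arrays numbered 4 and -0.19 to -0.10 without single arrays. Signs turned in 4 genes with small differences: BYSL (0.046 with cyclic loess, 0.060 with quantile normalization, 0.012 without both arrays numbered 4, -0.083 to 0.017 without single arrays), LTV1 (0.084 and 0.081, -0.17 to 0.086), NOLC1 (0.056 and 0.045, -0.15 to 0.025) and NOP10 (-0.011 to 0.21). The causes were not tested.

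With the replicate number as a block, 6 genes passed and the 39 genes still gave 0. Deviations of same-numbered arrays correlated between -0.04 and 0.06, and 2 of 8 arrays correlated best with their own number, so the arrays were not treated as pairs.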
